A study of Homo sapiens with 6 samples.

Results

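The transcripts of 9 chromatin regulators that act with or downstream of p63 in stratified epithelium were followed after silencing of ΔNp63: KMT5A, KMT2D, EZH2, DNMT1, SMARCA4, ACTL6A, CHD4, HDAC1 and SATB1. They were chosen by name for their known part in the p63 program, by a rule that uses no measured value but with earlier results of these data known, and make up 9 of the 40488 genes of the deposited table. The cells were SCC90, an established HPV16-positive oropharyngeal squamous cell carcinoma (OSCC) line. They were transfected with a scrambled siRNA (siCtrl, 3 libraries) or with an siRNA against the ΔNp63 isoform (siDNp63, 3 libraries), and both groups were collected at 72 h. The sample labels give 10 nM for the ΔNp63 siRNA and the methods of the study give a higher concentration. All libraries come from a single cell line and from 1 siRNA against ΔNp63 as labelled, and the labels do not say whether the 3 libraries of a group are from independent cultures, and each p-value therefore reflects variation among 3 libraries a group that may be no more than technical.

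ΔNp63 is the p63 isoform of the basal layer of stratified epithelia, a DNA-binding factor of the p53 family that keeps basal cells proliferating and committed to the epithelial lineage. It acts largely through chromatin: it raises the genes of remodellers and genome organisers, and it recruits enzymes that open enhancers or that close genes of other programs. Among the regulators followed here, KMT5A, KMT2D and EZH2 methylate histones, DNMT1 methylates DNA, and HDAC1 removes acetyl groups from histones. SMARCA4, ACTL6A and CHD4 belong to machines that move nucleosomes. SATB1 folds the locus of the epidermal differentiation genes in keratinocyte nuclei.

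The knockdown was visible in the TP63 gene itself (chr3:189631389-189897276, plus strand, GRCh38). TP63 stood at 42319, 44204 and 43700.1 normalized counts in siCtrl replicates 1, 2 and 3 and at 15520.1, 14474 and 15414 in siDNp63 replicates 1, 2 and 3. Normalized counts are read counts scaled by TMM, a factor per library that assumes most genes do not change, and set to a common library size. The log2 fold change was −1.52 (SE 0.04, edgeR quasi-likelihood adjusted p = 7.59e-07). These counts add all isoforms of the gene, so they do not give ΔNp63 alone. In bulk RNA of this kind, fewer cells of a type and less RNA per cell cannot be told apart.

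Library totals lay between 35716277 and 52598831 counts. The siDNp63 replicate 1 library stood apart from the other siDNp63 libraries on the second principal component. It was at 26.8 against −17.9 and −14.2, on a component with 18.1% of the variance. KMT2D, EZH2, SMARCA4 and the number of chromatin genes called are also given without it below. Single paralogs and listed genes are given with all libraries only. Of the markers checked for the identity of the cells, the squamous epithelial set (8 genes) summed to between 4415 and 4473 TPM in siCtrl and between 5348 and 5637 in siDNp63, where TPM is the level of a gene per transcript length within a library. KRT6A carried most of it, at 3038 to 3123 TPM in siCtrl, while the basal keratins KRT5 (6.10 to 8.24 TPM in siCtrl) and KRT14 (0.374 to 0.780 TPM in siCtrl) were low. The 6 leukocyte markers summed to 14.1 to 15.8 TPM in siCtrl and 11.3 to 12.4 in siDNp63. Of these, 2 were under 1 TPM in every library, PTPRC among them. The 6 fibroblast markers summed to 8.72 to 10.8 TPM in siCtrl and 5.82 to 9.11 in siDNp63. Of these, 3 were under 1 TPM in every library, and COL3A1 and LUM were near 0. The filter on low counts was passed by 4 leukocyte and 3 fibroblast markers. The 5 endothelial markers summed to 2.56 to 3.06 TPM in siCtrl and 11.2 to 13.7 in siDNp63. Within that list the 3 genes tested were all called higher: KDR (log2 fold change 2.36), PECAM1 (2.39) and VWF (0.88). CDH5 and TEK were under the filter on low counts. The part of these marker levels in the results on the chromatin regulators was not tested.

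The promoters of the members that moved most are shown with that of EZH2, which did not pass the test, so that the stretches can be read side by side. The sequences are RefSeq's, build GRCh38.p14, and give the 250 bases before the first annotated transcription start of each gene, 5′ to 3′ on the strand of the gene. Capitals mark matches, on either strand, to the CCAAT box, the binding motif of NF-Y (ATTGG where it lies on the other strand), which is common in promoters of proliferation genes.
KMT5A, chr12:123383882-123384131, plus strand: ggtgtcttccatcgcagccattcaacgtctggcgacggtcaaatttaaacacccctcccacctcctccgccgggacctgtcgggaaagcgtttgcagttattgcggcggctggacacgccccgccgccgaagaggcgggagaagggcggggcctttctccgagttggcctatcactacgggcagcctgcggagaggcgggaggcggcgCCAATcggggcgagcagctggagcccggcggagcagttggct
KMT2D, chr12:49060795-49061044, minus strand: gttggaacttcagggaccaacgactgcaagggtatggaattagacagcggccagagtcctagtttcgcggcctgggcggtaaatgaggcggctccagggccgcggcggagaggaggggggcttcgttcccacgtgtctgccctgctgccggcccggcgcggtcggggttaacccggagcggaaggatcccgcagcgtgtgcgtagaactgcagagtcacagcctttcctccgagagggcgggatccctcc
SATB1, chr3:18445593-18445842, minus strand: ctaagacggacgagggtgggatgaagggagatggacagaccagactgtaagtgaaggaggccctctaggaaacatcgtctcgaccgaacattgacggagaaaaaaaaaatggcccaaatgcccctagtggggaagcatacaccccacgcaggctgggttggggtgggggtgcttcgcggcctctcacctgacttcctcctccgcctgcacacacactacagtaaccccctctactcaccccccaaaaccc
EZH2, chr7:148884292-148884541, minus strand: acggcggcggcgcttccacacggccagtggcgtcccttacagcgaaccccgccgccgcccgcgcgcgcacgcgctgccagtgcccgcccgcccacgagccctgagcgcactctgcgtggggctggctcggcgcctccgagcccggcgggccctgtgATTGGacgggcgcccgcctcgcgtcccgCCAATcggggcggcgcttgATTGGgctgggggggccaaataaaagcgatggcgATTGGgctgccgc
Windows of 300 bases, which also take in the first 50 bases after the start, were searched for 4 motifs on both strands. These were the E2F motif (TTTCCCGC, TTTCGCGC, TTTGCCGC or TTTGGCGC), the CCAAT box (CCAAT), the CHR element of cell cycle genes (TTTGAA), and a p63-type pair. The pair is 2 words with 6 bases between them, where each word starts with C, ends with G and has A or T at both inner places. The first windows of DNMT1 and EZH2 held an E2F motif, present in 3.31% of all 35116 RefSeq windows of this length. CCAAT is in 34.6% of all windows. It was found 4 times before the start of EZH2, once in HDAC1 and once in the first window of KMT5A, 42 bases before its start. KMT2D, CHD4 and SMARCA4 held none of the 4 motifs. SATB1 has 4 annotated starts, and its first window, printed above, held none of the motifs, while 2 of the other 3 held a CHR element (15.2% of all windows) and 2 held CCAAT. The p63-type pair, found in 4.79% of all windows, was in none of the 14 windows of the 8 members that have one. No matches overlapped one another. ACTL6A has no entry in the table. Such a match describes letters in a window and not a bound site.

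Of the 9 regulators, 2 fell (KMT5A and KMT2D), 3 rose (SATB1, ACTL6A and CHD4) and 4 did not pass the test (DNMT1, HDAC1, EZH2 and SMARCA4), at an edgeR adjusted p under 0.05 over all 17257 genes tested. This is 5 of 9 members called, against a background of 33.6% of all genes tested (18.4% higher and 15.2% lower). Well-measured genes are called more often, and among the 4210 genes with a mean count no lower than that of the lowest member the share was 51.4%, with 35.8% called higher and 15.6% called lower. In 7 of the 9 members the siCtrl and siDNp63 libraries did not overlap, against 49.4% of all genes tested and 65.7% of the 4210 genes. No member reached an absolute log2 fold change over 1 together with the adjusted p, a pair of thresholds passed by 4.06% of all genes tested and 1.54% of the 4210 genes. The median absolute log2 fold change of the members was 0.16, beside 0.21 over all genes tested.

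**Figure D1:**
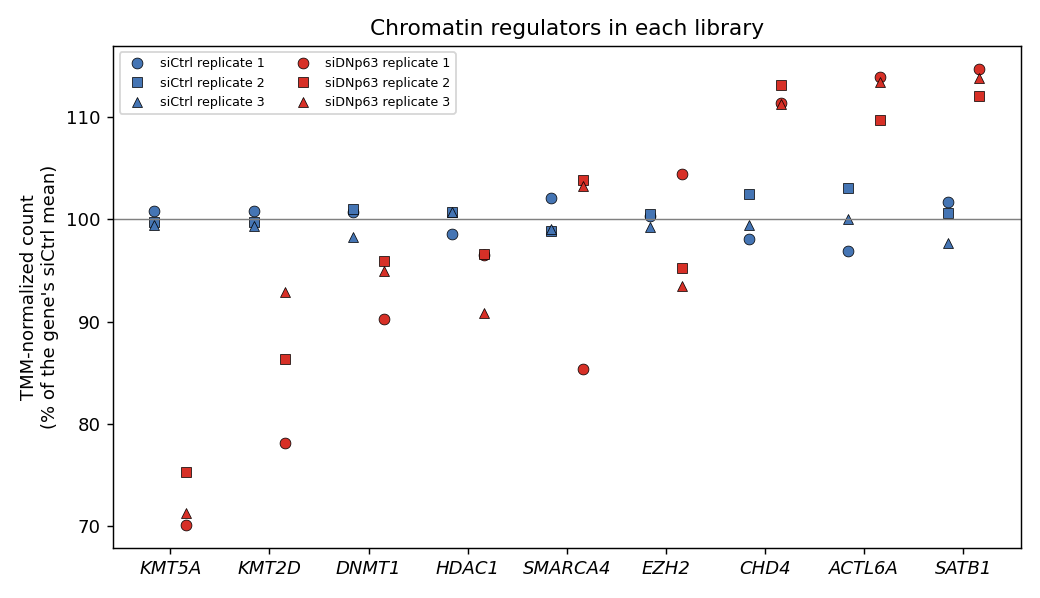
Each point is a library: the y axis gives the TMM-normalized count of a regulator as a percentage of its own siCtrl mean, and the x axis the 9 regulators (siCtrl blue, siDNp63 red, shape by replicate). KMT5A stands lowest in siDNp63, and the siCtrl libraries lie close together. siDNp63 replicate 1 lies below the other siDNp63 libraries for KMT5A, KMT2D, DNMT1 and SMARCA4.

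The histone methyltransferases gave the largest decrease and also a gene that did not pass the test. KMT5A (ENSG00000183955, chr12:123384132-123409353, plus strand), also known as SET8, is the enzyme that puts a single methyl group on a lysine of the histone H4 tail, a mark needed for chromosome compaction and the control of DNA replication. It was read at 5050.3, 4993 and 4978 normalized counts in siCtrl replicates 1, 2 and 3 and at 3510.5, 3769.9 and 3568 in siDNp63 replicates 1, 2 and 3. All 3 silenced libraries lay far below all 3 control libraries, and the gap was wider than the range of either group. The mean went from 5007 ± 38.2 (SD, n = 3) to 3616 ± 136 (SD, n = 3), a log2 fold change of −0.47 (SE 0.04, edgeR adjusted p = 8.61e-05), so that KMT5A fell by 27.8% with a 95% interval from −32.2% to −23.0%. It stayed past the threshold in every alternative analysis that was run at that threshold. The 3 processed pseudogenes of KMT5A listed in the table, which could share its reads, held at most 7.71 counts in any library.

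The closest relatives of KMT5A gave no lower call. KMT5B, which adds the further methyl groups to the same lysine, rose from 1546 ± 93.3 to 1845.0 ± 55.3 normalized counts (log2 change 0.26, SE 0.06, edgeR adjusted p = 0.00981), and KMT5C did not pass the test (0.06, SE 0.12, edgeR adjusted p = 0.765). By TPM, KMT5A was 7.03 times KMT5B in siCtrl and 4.56 times in siDNp63. Among the 11 other genes of the histone H4 lysine methylation list, which holds writers, erasers, readers and the ubiquitin ligase that degrades KMT5A, 2 rose and 1 fell by the test, while with library size alone as the scale 1 rose and 4 fell. The counts of this list and of those below stand beside 18.4% higher and 15.2% lower over all genes tested, and 13.5% and 23.9% with library size alone. Among the 4210 well-measured genes, 35.8% were called higher and 15.6% lower with TMM. The gene that fell was PHF8, a demethylase that removes the mark KMT5A writes, from 1828 to 1477 normalized counts (log2 change −0.31, SE 0.06, edgeR adjusted p = 0.00440). DTL, the ligase subunit that recognises KMT5A for destruction in S phase, was slightly higher (log2 fold change 0.13, SE 0.03, edgeR adjusted p = 0.0258). Across the 6 libraries, the genes whose profile lay nearest that of KMT5A among 13881 compared were TCEAL8, BICD2 and ZNF395, with root mean square differences of 0.0219, 0.0227 and 0.0245 on the log2 scale.

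KMT2D (ENSG00000167548, chr12:49018975-49060794, minus strand), also MLL4, methylates histone H3 at enhancers and is frequently mutated in squamous carcinomas. It stood at 11154, 11033 and 10993 normalized counts in siCtrl replicates 1, 2 and 3 and at 8635, 9554 and 10271 in siDNp63 replicates 1, 2 and 3. The control libraries were almost level, the silenced ones were spread out, and the groups did not overlap. The mean went from 11059.8 ± 83.9 to 9487 ± 820.3 (SD, n = 3 each). The difference was −0.22 on the log2 scale (SE 0.06, edgeR adjusted p = 0.0255): KMT2D fell by 14.2% with a 95% interval from −22.2% to −5.35%. Of the 5 calls, this was the one that was lost when a library was left out. Leaving out any siCtrl library gave an adjusted p between 0.0924 and 0.0975, leaving out siDNp63 replicate 2 gave 0.0552, and without siDNp63 replicate 1 the log2 fold change was −0.16 with an edgeR adjusted p of 0.0173. The change was larger with limma on log2(TPM + 1), −0.38 (adjusted p = 0.0106), and with the effective length offset, −0.33 (edgeR adjusted p = 0.0120).

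The paralog KMT2C, the other enhancer methyltransferase of this kind, was at 10119 ± 265 and 10989 ± 1029 normalized counts (log2 change 0.12, SE 0.07, edgeR adjusted p = 0.214). Its highest level was in siDNp63 replicate 1 (12017), the library in which KMT2D was lowest. By TPM, KMT2D was 1.64 times KMT2C in siCtrl and 1.22 times in siDNp63. Of the 18 other genes of the COMPASS complexes, which carry the KMT2 enzymes, 2 rose and 2 fell, whereas library size alone gave 1 and 6. NCOA6, a subunit of the KMT2C and KMT2D complexes, rose from 7729 to 9890.4 normalized counts (log2 change 0.36, SE 0.03, edgeR adjusted p = 1.82e-04), and KDM6A, the demethylase in the same complexes, rose less (0.20, SE 0.06, edgeR adjusted p = 0.0285). WDR82, a subunit of the SETD1 complexes, fell (log2 fold change −0.14, SE 0.04, edgeR adjusted p = 0.0309). The profiles nearest that of KMT2D were those of DNM1 and CELSR3, with a root mean square difference of 0.0296 each, followed by ENSG00000096171 at 0.0320.

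EZH2 (ENSG00000106462, chr7:148807257-148884321, minus strand) is the catalytic subunit of Polycomb repressive complex PRC2, which keeps epidermal differentiation genes closed in progenitors. It was at 4932, 4941 and 4878 normalized counts in siCtrl replicates 1, 2 and 3 and at 5137, 4685 and 4599 in siDNp63 replicates 1, 2 and 3. One silenced library was above all controls and the other 2 were below them, so the groups overlapped. The log2 fold change was −0.03 (SE 0.05, edgeR adjusted p = 0.637), with a 95% interval from −0.15 to 0.08. It was −0.081 without siDNp63 replicate 1 (edgeR adjusted p = 0.0724) and −0.0010 without siDNp63 replicate 3 (edgeR adjusted p = 0.992). Its paralog EZH1, typical of cells that no longer divide, did not pass either (log2 fold change −0.05, SE 0.05, edgeR adjusted p = 0.499), and by TPM EZH2 was 3.52 times EZH1 in siCtrl and 3.55 times in siDNp63.

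Some of the other PRC2 subunits passed the test. Of 11 other PRC2 genes 4 rose and 0 fell, and with library size alone 2 rose and 1 fell. The 36.4% called is near the 35.8% called higher among the 4210 well-measured genes. SUZ12, the scaffold of the complex, stood at 7653, 7501 and 7693 normalized counts in siCtrl replicates 1, 2 and 3 and at 10182, 8687 and 9417 in siDNp63 replicates 1, 2 and 3. All silenced libraries were above all controls (log2 fold change 0.31, SE 0.06, edgeR adjusted p = 0.00484). RBBP7, a histone-binding subunit that PRC2 shares with the NuRD complex, rose from 5024 to 6383 (log2 fold change 0.35, SE 0.04, edgeR adjusted p = 3.98e-04), and the accessory subunits JARID2 (0.15, edgeR adjusted p = 0.0160) and MTF2 (0.16, edgeR adjusted p = 0.0241) rose less. EED, the third core subunit, was at 1324 and 1433 normalized counts (0.11, SE 0.05, edgeR adjusted p = 0.118). The companion complex PRC1 gave 3 genes higher and 4 lower of 19, and 2 and 6 by library size alone. In PRC1, BMI1, known for self-renewal of stem cells, rose from 2612 to 3669 normalized counts (log2 change 0.49, SE 0.06, edgeR adjusted p = 6.92e-04). CBX7, a reader of the PRC2 mark, fell from 497 to 383 (−0.38, SE 0.08, edgeR adjusted p = 0.00711).

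DNMT1 (ENSG00000130816, chr19:10133342-10231286, minus strand) copies DNA methylation onto new strands at replication and keeps epidermal progenitors undifferentiated. It was read at 14944, 14986 and 14582 normalized counts in siCtrl replicates 1, 2 and 3 and at 13390.5, 14238 and 14083 in siDNp63 replicates 1, 2 and 3. Every silenced library lay below every control, by a small margin. The log2 fold change of −0.09 (SE 0.04) did not pass (edgeR adjusted p = 0.0961), although its unadjusted 95% interval, −0.18 to −0.01, left out 0. Among the alternatives it passed only with library size alone as the scale (−0.18, edgeR adjusted p = 0.0102).

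The genes that work with DNMT1 were mixed. UHRF1, which brings DNMT1 to newly copied DNA, was at 5158, 4942 and 4995.0 normalized counts in siCtrl replicates 1, 2 and 3 and at 4318, 5369 and 5588 in siDNp63 replicates 1, 2 and 3 (log2 fold change 0.02, SE 0.09, edgeR adjusted p = 0.895), with siDNp63 replicate 1 lowest and the other 2 above all controls. CDCA7, the partner of the remodeller HELLS in heterochromatin methylation, fell from 2481 to 1760.1 (−0.50, SE 0.04, edgeR adjusted p = 1.05e-04), and HELLS itself fell from 5182 to 4574 (−0.18, SE 0.04, edgeR adjusted p = 0.0111). TET3 (0.36, SE 0.04, edgeR adjusted p = 2.72e-04) and TET2 (0.36, SE 0.06, edgeR adjusted p = 0.00286), enzymes that oxidise methylated cytosine, rose. The de novo methyltransferases DNMT3A (0.08, SE 0.05, edgeR adjusted p = 0.200) and DNMT3B (0.11, SE 0.09, edgeR adjusted p = 0.388) did not pass the test. In all, 5 of 20 other DNA methylation genes tested rose and 3 fell, and library size alone gave 3 and 6.

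The nucleosome remodellers gave 2 modest increases and 1 gene that did not pass the test. SMARCA4 (ENSG00000127616, chr19:10960932-11079426, plus strand), also BRG1, is the motor of the BAF complex. It was at 6431, 6230.4 and 6244 normalized counts in siCtrl replicates 1, 2 and 3 and at 5379, 6546 and 6505 in siDNp63 replicates 1, 2 and 3. siDNp63 replicate 1 was below all controls, and the other 2 were above them. Between the groups the log2 fold change was −0.04 (SE 0.07, edgeR adjusted p = 0.747) and its 95% interval ran from −0.21 to 0.14. Without siDNp63 replicate 1 it was 0.052 (edgeR adjusted p = 0.2503), so the sign rested on that library.

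The alternative motor of BAF, SMARCA2 (BRM), was higher in all 3 silenced libraries, at 13700.4 ± 146 and 14964 ± 591 normalized counts (log2 change 0.13, SE 0.04, edgeR adjusted p = 0.0404). By TPM, added over all isoforms, it was the more abundant of the pair in SCC90. SMARCA4 was 0.287 times SMARCA2 in siCtrl and 0.266 times in siDNp63. The lead was smaller in normalized counts, with siCtrl means of 6302 for SMARCA4 and 13700 for SMARCA2. Which isoforms carried these reads was not tested. Of 25 other BAF genes tested, 7 rose and 3 fell, a split that turned to 3 and 8 with library size alone. ARID2, a subunit of the PBAF form, rose from 3661 to 4526 normalized counts (log2 change 0.31, SE 0.05, edgeR adjusted p = 0.00288), and SS18 (0.22, edgeR adjusted p = 0.00306) and the core subunit SMARCC2 (0.22, edgeR adjusted p = 0.00348) rose by less. DPF3, a reader subunit, had the largest fold but at low counts, 17.7 and 6.32 normalized counts on average (log2 fold change −1.46, SE 0.34, edgeR adjusted p = 0.0120).

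ACTL6A (ENSG00000136518, chr3:179562886-179588407, plus strand), also BAF53A, is an actin-related subunit shared by BAF, INO80 and TIP60 that lies near TP63 on 3q, a region often gained in squamous carcinomas. It stood at 10132, 10775 and 10459.8 normalized counts in siCtrl replicates 1, 2 and 3 and at 11914, 11477 and 11863 in siDNp63 replicates 1, 2 and 3. All silenced libraries were above all controls. ACTL6A rose by 12.4% with a 95% interval from 5.61% to 19.6%, a log2 fold change of 0.17 (SE 0.04, edgeR adjusted p = 0.0119). It did not pass with library size alone (0.08, edgeR adjusted p = 0.101) or, narrowly, with limma on log2(TPM + 1) (0.15). ACTL6B, the neuronal paralog, was at 1.0 count in every library and was under the filter.

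Of 26 other INO80 and TIP60 genes, 9 rose and 0 fell, and 4 rose and 1 fell with library size alone. Examples are NFRKB, an INO80 subunit (2009.8 and 2445 normalized counts, log2 fold change 0.28, SE 0.04, edgeR adjusted p = 0.00140), and MORF4L1, a TIP60 subunit that reads histone methylation (15477 and 18444, log2 fold change 0.25, SE 0.04, edgeR adjusted p = 0.00179). The 9 genes are 34.6% of the list, near the 35.8% called higher among the 4210 well-measured genes, and its median log2 fold change was 0.14, beside −0.02 over all genes tested. No median was taken over the 4210 well-measured genes, which were more often called higher than lower.

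CHD4 (ENSG00000111642, chr12:6570082-6614524, minus strand), also Mi-2β, is the remodelling motor of NuRD, which joins remodelling with histone deacetylation. It was read at 14020.5, 14644 and 14216 normalized counts in siCtrl replicates 1, 2 and 3 and at 15924.5, 16169 and 15911 in siDNp63 replicates 1, 2 and 3. The silenced libraries were tightly grouped above all controls. CHD4 rose by 12.0% with a 95% interval from 5.96% to 18.3%, which is 0.16 on the log2 scale (SE 0.03, edgeR adjusted p = 0.00801). The annotation has a second protein-coding gene on the same strand over CHD4, ENSG00000285238, which took between 0.951% and 7.29% of their summed counts, and the sum of both gave 0.15 (edgeR adjusted p = 0.0145). The call did not hold with library size alone (0.08, edgeR adjusted p = 0.0951), with an offset for effective transcript length (0.16, edgeR adjusted p = 0.198) or with limma on log2(TPM + 1) (0.11, adjusted p = 0.382).

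The other CHD enzymes of NuRD were also higher, and their changes were not tested against that of CHD4. CHD3 went from 20206 ± 596 to 24630 ± 671 normalized counts (log2 change 0.29, SE 0.04, edgeR adjusted p = 9.22e-04), and CHD5, a tumour suppressor best known in neurons, from 877 ± 33.6 to 1269.5 ± 91.2 (0.53, SE 0.07, edgeR adjusted p = 7.03e-04). By TPM, CHD4 and CHD3 stood near each other, at a ratio of 1.02 in siCtrl and 0.926 in siDNp63. Of 13 other NuRD genes 4 rose and 2 fell, and library size alone gave 4 and 5. MTA2, a scaffold subunit, fell from 9183 to 8071 normalized counts (log2 change −0.19, SE 0.04, edgeR adjusted p = 0.00846).

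HDAC1 (ENSG00000116478, chr1:32292083-32333635, plus strand) is the deacetylase of NuRD and of the SIN3 and CoREST corepressors, and it works with ΔNp63 in gene repression in epidermal progenitors. It stood at 9946, 10157 and 10159 normalized counts in siCtrl replicates 1, 2 and 3 and at 9735, 9744 and 9168 in siDNp63 replicates 1, 2 and 3. All silenced libraries lay under all controls, 2 of them closely. A log2 fold change of −0.08 was measured (SE 0.04, edgeR adjusted p = 0.160), with a 95% interval from −0.17 to 0.01, and it was −0.049 without siDNp63 replicate 3. It passed with library size alone (−0.17, edgeR adjusted p = 0.00767) and in limma on log2(TPM + 1) (−0.15, adjusted p = 0.0210). HDAC2, its near twin, was at 9643 ± 197 and 10061 ± 229 normalized counts (log2 change 0.06, SE 0.04, edgeR adjusted p = 0.246), and by TPM HDAC1 was 1.01 times HDAC2 in siCtrl and 0.880 times in siDNp63. The processed pseudogene HDAC1P2 held 69.6 to 116 counts.

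Larger changes lay elsewhere among the deacetylases. HDAC9, a class II enzyme, was at 645, 654 and 669 normalized counts in siCtrl replicates 1, 2 and 3 and at 1633, 1411 and 1509 in siDNp63 replicates 1, 2 and 3 (log2 fold change 1.21, SE 0.07, edgeR adjusted p = 1.09e-05), with a wide gap between the groups. HDAC11 fell from 324 to 213 (−0.60, SE 0.13, edgeR adjusted p = 0.00815). RCOR1, the CoREST scaffold that holds HDAC1, rose from 6631 to 8971 (0.44, SE 0.05, edgeR adjusted p = 2.88e-04). In this list of deacetylases and corepressors, 9 of 26 other genes rose and 3 fell, against 4 and 4 with library size alone.

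SATB1 (ENSG00000182568, chr3:18345377-18445621, minus strand) was the member with the lowest level per transcript length. It was read at 2465, 2439.8 and 2367 normalized counts in siCtrl replicates 1, 2 and 3 and at 2781, 2715 and 2758 in siDNp63 replicates 1, 2 and 3. The silenced libraries all lay above the controls, with little spread in either group. SATB1 rose by 13.5% (95% interval 6.87% to 20.5%), a log2 fold change of 0.18 (SE 0.04, edgeR adjusted p = 0.00713). With library size alone it was 0.10 (edgeR adjusted p = 0.0773), and with limma on log2(TPM + 1) it was 0.26 (adjusted p = 0.0796). Allowing for effective transcript length gave 0.32 (edgeR adjusted p = 0.0225), because the mean length of the transcripts assigned to SATB1, relative to the median gene of each library, was lower by 9.89% in siDNp63 (change −9.89%). TBC1D5 overlaps SATB1 on the same strand and held more counts in every library. Before scaling it had 7076, 6166 and 5531 counts in siCtrl replicates 1, 2 and 3, beside 2841, 2346 and 2101 for SATB1. In siDNp63 replicates 1, 2 and 3 it had 4835, 6645 and 5914, beside 2173, 3172 and 2892. The sum of both genes was not tested.

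The list of genome organisers, with 17 other genes tested, had 7 higher and 1 lower, and the same 7 and 1 by count with library size alone. The largest was HMGA2, an architectural protein of embryonic and tumour cells, at 4500.3, 4560.3 and 4437 normalized counts in siCtrl replicates 1, 2 and 3 and at 8380.1, 7150.3 and 7174 in siDNp63 replicates 1, 2 and 3 (log2 fold change 0.75, SE 0.06, edgeR adjusted p = 9.67e-05). Its groups were far apart. STAG1, a cohesin subunit, rose from 6129 to 8039 (0.39, SE 0.04, edgeR adjusted p = 3.49e-04).

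**Figure D2:**
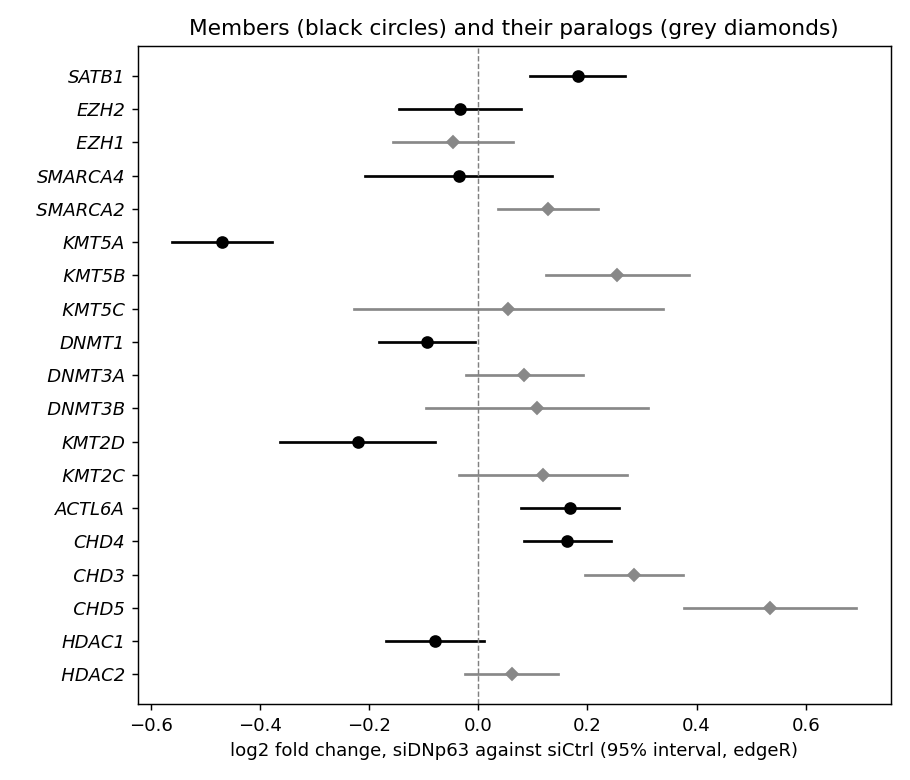
The log2 fold change of each regulator (black circles) and of the paralogs described above (grey diamonds), siDNp63 against siCtrl, with bars for the 95% interval of the edgeR fit. KMT5A lies furthest to the left at −0.47, while CHD5 at 0.53 and CHD3 at 0.29 lie furthest to the right.

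Compared per transcript length, the regulators spanned a wide range of levels. In siCtrl the order by TPM was ACTL6A (287 ± 9.48), HDAC1 (235 ± 1.94), DNMT1 (201 ± 12.3), CHD4 (134 ± 13.5), KMT5A (113 ± 5.60), SMARCA4 (89.5 ± 0.599), EZH2 (74.2 ± 0.662), KMT2D (49.0 ± 3.21) and SATB1 (23.5 ± 2.38), as mean TPM ± SD of 3 libraries. No neighbours in that order had overlapping ranges. In siDNp63 the same genes stood at 318 ± 9.05, 211 ± 3.40, 185 ± 29.6, 144 ± 8.22, 83.9 ± 7.85, 89.1 ± 8.02, 67.8 ± 4.31, 37.5 ± 2.41 and 28.3 ± 1.82 TPM. There HDAC1 and DNMT1 overlapped, and so did SMARCA4 and KMT5A, with the mean of KMT5A now below that of SMARCA4. DNMT1 spread most among the silenced libraries in TPM, from 158 to 217, while its effective transcript length, relative to the median gene of the library, was 1.12, 1.41 and 1.62 in siDNp63 replicates 1, 2 and 3.

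**Figure D3:**
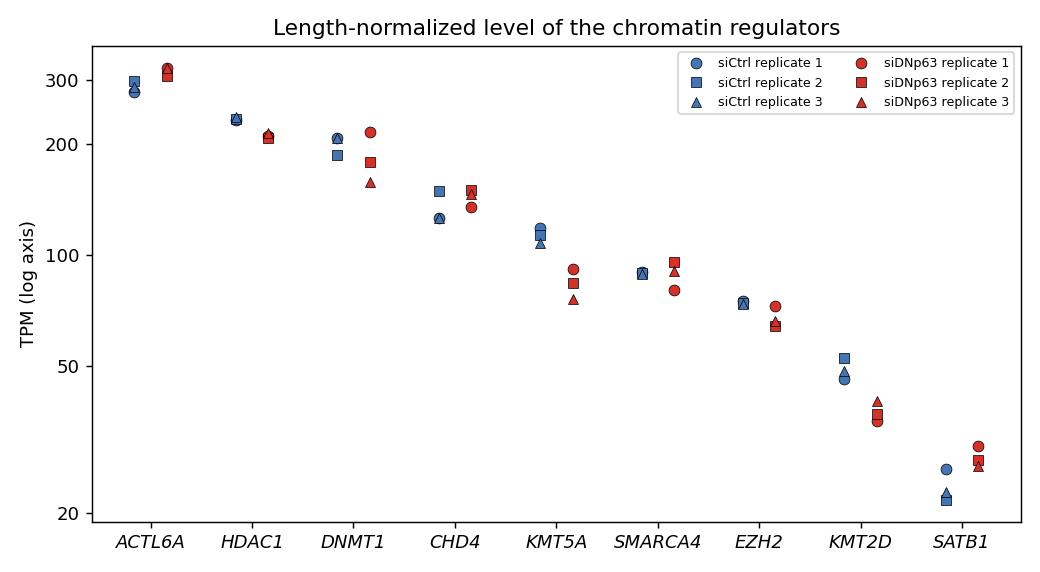
TPM of each regulator in each library on a log axis, ordered from the highest to the lowest siCtrl mean (siCtrl blue, siDNp63 red, shape by replicate). ACTL6A is highest at 278 to 297 TPM in siCtrl and SATB1 lowest at 21.6 to 26.2, and KMT5A drops to 76.0 to 91.6 TPM in siDNp63, into the range of SMARCA4.

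Over the 10 chromatin lists there were 181 other genes tested, 51 of them higher (28.2%) and 19 lower (10.5%), against a background of 18.4% higher and 15.2% lower over all genes tested, and 35.8% and 15.6% among the 4210 genes with a mean count no lower than that of the lowest member. With library size alone 30 were higher (16.6%) and 40 lower (22.1%), against 13.5% and 23.9% over all genes. With limma on log2(TPM + 1) 13 were higher (7.18%) and 14 lower (7.73%), against 9.67% and 13.6% over all genes, so the larger share of higher calls was not seen there. The median over all genes went from −0.02 with TMM to −0.11 with library size alone on the log2 scale. The median log2 fold changes of the 10 lists lay between −0.05 (PRC1) and 0.16 (genome organisers). Relative to the median of all genes, the median of the 181 was higher by 0.09 with TMM and with library size alone. These scalings differ by a factor per library, which moves all genes nearly alike. Their values relative to the median must therefore be almost equal, and the library size value is no second test. With limma on log2(TPM + 1) the median of the 181 was higher by 0.06. No median was taken over the 4210 genes for comparison. Relative to that same median under library size alone, SATB1, ACTL6A and CHD4 were at 0.21, 0.19 and 0.19 and KMT5A and KMT2D at −0.45 and −0.20. For the same reason these values repeat those with TMM, and they are no further test of the changes. These 5 genes were at 0.32, 0.20, 0.16, −0.37 and −0.32 with limma on log2(TPM + 1).

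Genes of proliferation and differentiation were followed beside these regulators. Of 22 genes of cycling cells, 11 rose and 1 fell, with 6 and 1 for library size alone, and their median log2 fold change was 0.14. TOP2A, the topoisomerase of dividing cells, rose from 28976 to 44442 normalized counts (log2 change 0.62, SE 0.06, edgeR adjusted p = 1.41e-04), and CCNE1, the cyclin of S phase entry, fell from 851 to 465 (−0.87, SE 0.07, edgeR adjusted p = 6.87e-05). Of 17 genes tested that p63 is known to control in keratinocytes, 11 rose and 1 fell (10 and 1 by library size alone), with a median of 0.86. KLF4, a factor that opens differentiation genes, rose from 2088 to 4878 (1.22, SE 0.04, edgeR adjusted p = 1.42e-06), and GRHL3, which drives the late epidermal program, from 1573 to 4590.2 (1.55, SE 0.05, edgeR adjusted p = 1.42e-06). SPRR3, a cornified envelope precursor, rose from 505 to 938 (0.90, SE 0.08, edgeR adjusted p = 1.03e-04), and CDKN1A, the cell cycle inhibitor p21, fell from 5878 to 5121 (−0.20, SE 0.04, edgeR adjusted p = 0.00652). The median shift of this list against the siCtrl mean was 0.59 in siDNp63 replicate 1 and 0.96 and 0.89 in replicates 2 and 3 on the log2 scale.

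**Figure D4:**
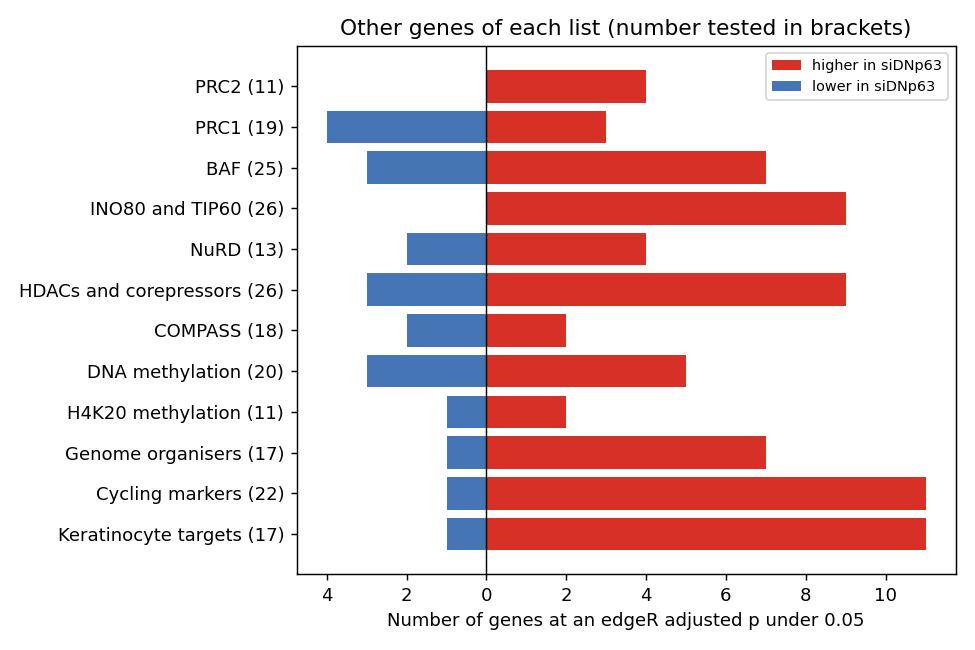
Number of genes called higher (red, to the right) and lower (blue, to the left) in siDNp63 at an edgeR adjusted p under 0.05, for the genes of each list other than the 9 regulators, with the number tested in brackets. The counts drawn are under TMM scaling: INO80 and TIP60 had 9 higher and 0 lower, the cycling markers 11 and 1, and PRC1 3 and 4. Counts under library size alone are not drawn. There the PRC1, BAF, NuRD, COMPASS, DNA methylation and histone H4 lysine lists had more genes lower than higher.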

How the data were processed

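Poly(A) RNA of 6 libraries, 3 siCtrl and 3 siDNp63 as the sample titles give them, was read from a single end after stranded library preparation. According to the submitters' processing notes, bcl2fastq 2.17.1.14, kallisto 0.46.2 and build hg38 were used, and which annotation release was used is not given in the sources. The deposited table holds, for 40488 Ensembl genes, the expected counts (estimated counts) that the authors summed per gene without scaling, and the TPM values deposited by the authors, which are normalized for length. Transcript-level assignment splits reads between overlapping genes and near copies by likelihood.

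Expected counts were rounded. Genes were filtered (filterByExpr, minimum count 10, 17257 kept), scaled by TMM and tested with edgeR 4.0.16 (quasi-likelihood, group as the only term, R 4.3.3), with Benjamini-Hochberg adjustment over all genes kept. DESeq2 1.42.0, limma 3.58.1 (voom, and log2(TPM + 1) with a pseudocount of 1), other scalings and filters, an effective length offset, a replicate block and leaving out each library were alternatives. The code of the fits was also run on simulated counts in which few genes changed, in both directions, at constant transcript length. That run cannot decide between the scalings or the settings for length, since neither problem was built into it. The regulators and lists were chosen with earlier results of these data known, so no list was tested as a set. The genes named are TP63, the 9 regulators and their paralogs, up to 3 called genes of smallest p per list with genes whose role in it is described, and the 3 profiles nearest to each of the 2 regulators with the largest change, among genes with a mean of at least 50 normalized counts. A gene that this rule names is not reported here. HDAC11, DPF3 and the genes of the marker lists were named after their values were seen. Gene coordinates are GENCODE's for GRCh38, and promoters are RefSeq's. The totals of 35716277 to 52598831 counts make counting error small for the 9 regulators, whose mean normalized counts lay between 2424 and 16002 in either group. All 12 value columns were used, and HPV transcripts were not analysed here.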

Additional observations from a re-analysis of the deposited data

How the results depend on the processing

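Of 136 values of the 9 regulators under the alternatives, 120 kept their direction and side of the threshold. KMT5A stayed called, from −0.55 to −0.37 on the log2 scale. SMARCA4 turned from −0.04 to 0.055 with the effective length offset, and ranged from −0.082 to 0.052 when a library was left out (0.052 without siDNp63 replicate 1). The cause was not tested. The adjusted p rose to at least 0.05 for SATB1, ACTL6A and CHD4 with library size alone and with limma on log2(TPM + 1) (adjusted p up to 0.382), for CHD4 also with the length offset, and for KMT2D when 1 of 4 libraries was left out, while DNMT1 and HDAC1 became called with library size alone and HDAC1 with limma on TPM. The number of regulators called was 5, with 3 by limma on log2(TPM + 1), 1 at an adjusted p under 0.005, and 4 to 5 when a library was left out. Over all genes tested 3177 were higher and 2626 lower, with 406 and 295 past the fold threshold too. Library size alone gave 4117 lower. Limma on log2(TPM + 1) gave 1668 higher, and 148 higher and 113 lower past both thresholds. An adjusted p under 0.005 gave 1767 higher and 1137 lower, with 170 lower past both. Leaving out a library gave 2459 to 3653 higher, 1877 to 3187 lower, and 373 to 422 and 232 to 327 past both. No pairing by replicate number was seen: the correlations between same-numbered libraries were 0.0144, −0.0150 and −0.0195. Such values cannot tell whether same-numbered libraries shared a culture or a day, which the labels do not give. A replicate block gave 5 regulators called, 2777 genes higher and 2175 lower (389 and 261 past both thresholds), and KMT2D at −0.22 (edgeR adjusted p = 0.0372). Summing CHD4 with the gene that overlaps it, and the other scalings of the chromatin lists, were chosen after seeing the data. The 9 regulators all had mean normalized counts of at least 2424 per group, and what limits their precision was not tested.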

Other observations

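Long transcripts differed between the silenced libraries. For the 389 genes whose effective length was over 4 times that of the median gene, the median log2 level in siDNp63 replicate 1 was 0.14 above the mean of replicates 2 and 3, and for the 2343 genes under 0.5 times the median length it was −0.07. KMT2D, SMARCA4 and DNMT1, with relative effective lengths of 4.25, 1.32 and 1.39 in siCtrl, were lowest in that library. This was against the median of the genes in their length classes. KMT5A, at 0.832, was also lowest there, in a length class with a median of −0.006. The relative effective length of KMT2D was 6.99% higher in siDNp63, and those of SMARCA4 and KMT5A had changes of −6.30% and −6.25%. These lengths come from how reads were assigned to transcripts, and a switch of isoforms was not tested.

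Without siDNp63 replicate 1, the other chromatin genes gave 66 higher and 25 lower of 181, against 51 and 19 with all libraries. Over all genes tested the shares were 20.5% higher and 17.9% lower without that library and 18.4% and 15.2% with it.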
